A study of Salmo salar with 12 samples.

Results

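The comparison of high with low uranium exposure set 3 liver arrays of Atlantic salmon (*Salmo salar*) exposed to 1.0 mg/L depleted uranium (high U) against 3 arrays of fish exposed to 0.25 mg/L (low U), which are 6 of the 12 arrays of the study. The members were chosen by their labelled concentration alone, and no control array entered the contrast. It asks what a 4-fold higher concentration adds to, or takes away from, the hepatic transcript pattern seen at the lowest one. All fish were juveniles (parr) kept in lake water without feeding and exposed in the dark for 48 h in a static, aerated system, to uranyl acetate dihydrate at 1.0, 0.5 (medium U) or 0.25 mg/L or to none (control). Each array carried the RNA of 1 liver sample, read in 1 colour, and 3 of the fish of a treatment were arrayed. The methods describe no replicate tanks, so p-values measure the spread between these samples, and an effect of the tank cannot be told apart from that of the concentration. Bulk liver tissue was extracted, so that fewer cells of a type and less RNA per cell cannot be told apart.

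Uranium in water occurs largely as the uranyl ion and its complexes, which bind phosphate and carboxyl groups of proteins, lipids and nucleic acids. Depleted uranium is weakly radioactive and is known mainly for its chemical toxicity, with the kidney as the classical target in mammals. The liver makes bile acids and most plasma proteins and lipids, stores and releases glucose, and takes up and excretes foreign compounds, and its cells are rich in mitochondria.

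Slides provide the closest comparison, since each of the 3 slides carried 1 array of every group and was scanned in 1 run. High U on slides 1, 2 and 3 corresponds to labelled replicates 2, 1 and 3, and low U on slides 1, 2 and 3 to labelled replicates 3, 2 and 1. Arrays are therefore identified by slide. Values are log2 intensities minus the 75th percentile of the array, so that a shift in brightness shared by most probes is removed. The 75th percentile itself was 68.8 to 94.7 intensity units at high U and 113 to 138 at low U, and no spot was saturated.

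One low U array stood apart from the others. On the low U array of slide 2, 785 probes that were well above background on the other 11 arrays of the study were not, and 89.8% of the lost spots lay in 14 of the 128 blocks into which its grid was divided, which held 6625 of its 61657 probe spots (the area of lost spots). Within that area 35.3% of such spots were lost, against 0.473% elsewhere on the same array. On the other 5 arrays compared, 12 to 478 probes were lost on that array alone. The scanner software marked 217 spots of this array as outliers, against 11 to 32 on the other 5. Probes with a spot in this area are named as such below, and counts are given without them where they differ by much. The scaling of the array was not redone for these counts, so a shift of its other probes stays in them. The median high U minus low U difference on slide 2 was -0.16 without these probes and -0.13 with them.

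The RNA of the high U livers gave dimmer arrays than that of the low U livers. Spike-ins are foreign transcripts added to each RNA at a constant quantity, and 7 of their probes were used. Relative to their median, the median of the 20456 probes detected on all 12 arrays was -3.54, -3.70 and -3.68 (log2) at high U on slides 1, 2 and 3, against -3.11, -2.74 and -3.22 at low U. The groups did not overlap. The mean was -3.64 ± 0.09 at high U and -3.02 ± 0.25 at low U (SD, n = 3 each), which is a difference of -0.61, or 0.653 times the brightness. The two-sided exact permutation test over 20 regroupings gave p = 0.1, the smallest that 3 arrays against 3 allow (0.167 after Benjamini-Hochberg adjustment over the 5 array measures tested). Within slides the difference was -0.43, -0.96 and -0.45 (8 sign changes, exact p = 0.25, which is the minimum). The spike-ins themselves had a median of 10.76 ± 0.23 at high U and 10.77 ± 0.09 at low U (exact permutation p = 0.9, adjusted 0.9, n = 3 each).

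**Figure D1:**
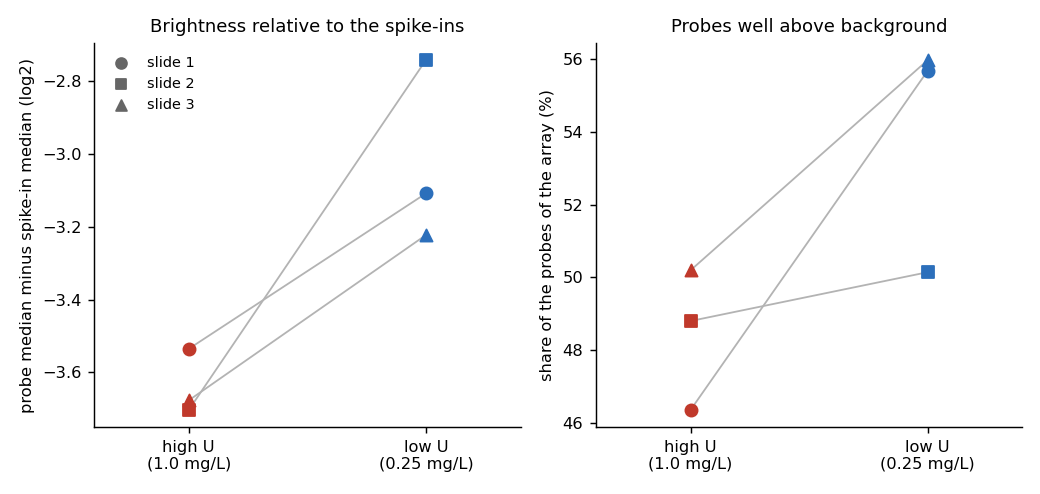
The left panel shows the median log2 intensity of the probes minus that of the spike-ins, and the right panel the share (%) of the 55468 probes well above background, for each array of high U (red) and low U (blue), with arrays of 1 slide joined by a line. High U lies below low U on every slide in both panels, with the low U array of slide 2 lowest of its group in the share of probes detected.

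Fewer probes were detected at high U. The share of the 55468 probes well above background was 46.4%, 48.8% and 50.2% at high U on slides 1, 2 and 3, against 55.7%, 50.1% and 56.0% at low U. The means were 48.4% ± 1.9 at high U and 53.9% ± 3.3 at low U (SD, n = 3 each), a difference of -5.48 percentage points (two-sided exact permutation test, p = 0.2, adjusted 0.25). The high U array of slide 3 and the low U array of slide 2, the one with lost spots, had nearly the same share. In total 22420 probes were detected on all 6 arrays and 20451 on none.

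Probes detected at a single concentration were nearly all low U probes. There were 450 probes well above background on all 3 low U arrays and on no high U array, and 2 with the opposite pattern. Of the 450, 325 were detected on all 3 medium U arrays, 37 on all 3 control arrays and 165 on no control array. With each high U array set at its lowest detected signal where the probe lay under it, the low U level exceeded the bound for 447 of them, by a median of at least 1.57-fold, and by at least 2-fold for 96. The dimmer arrays of high U move with this count, and their part in it was not tested.

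Among these probes 11 carried a name. DTX3L, a ubiquitin ligase of the DNA damage and interferon responses in mammals, was not well above background on any high U array. It had -2.65, -2.55 and -2.73 at high U on slides 1, 2 and 3, against -1.55, -0.89 and -1.04 at low U. Its signal was 2.81-fold lower at high U, which was the measured difference and not a bound. The interval of the fit was -2.02 to -0.95 (log2, limma, adjusted p = 0.552). YTHDF1, a reader of methylated adenosine in mRNA, had -3.92, -4.30 and -3.86 at high U, against -2.33, -2.26 and -2.87 at low U, which gave at least 2.26-fold (limma, adjusted p = 0.682). Both genes were apart on every slide, and neither passed the test, into which they came through their low U arrays alone. The same pattern was seen for SFMBT2, a polycomb group protein, with at least 1.45-fold lower signal at high U, and for the probe given the symbol CA3 but the description carbonic anhydrase 4, with at least 1.87-fold. With normexp background correction the direction of CA3 turned.

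Across all probes, no transcript passed the test between high and low U. Of 29022 probes tested, limma in a single fit over the 12 arrays called 0 (0%) when 1.5-fold and an adjusted p below 0.05 were both required, and the lowest adjusted p was 0.552. At an unadjusted p below 0.05 there were 1323 probes, which is 4.56% of those tested, 390 of them higher (1.34%) and 933 lower at high U (3.21%). Lower probes made up 70.5% of the 1323, a share that changed when single low U arrays were left out. Without the one of slide 3 it was 45.5% (1070 higher, 893 lower), and without the one of slide 1 it was 47.9% (997 higher, 915 lower). Both of these fits keep the low U array with lost spots. The share was 65.0% without that array and 73.7% without the probes of the area of lost spots. It was 26.5% with no filter on dim probes, where 3589 were higher and 1291 lower, and 54.5% with normexp background correction. With scaling to the spike-ins in place of the 75th percentile the median of all tested probes was -0.61 in place of -0.04 and 99.9% of the probes at this level were lower, so the differences below are relative to the 75th percentile. A fit in limma that took each slide as a block gave 0 calls too, with 1988 probes at an unadjusted p below 0.05 and a lowest adjusted p of 0.424. The one-way test of the methods over the 4 groups, with its Tukey step between high and low U, called 48 probes on the same values (0.165%), 19 higher and 29 lower at high U. Both steps were run at 0.05, where the methods print a corrected p below 0.5. Only the step over the 4 groups was adjusted over probes, so the 48 are not comparable with the calls of limma. Of the 48, 32 were among the probes that the study listed as responding, which made up 798 of the 29022 tested. That list came from a one-way test with a Tukey step on these same arrays, so the overlap is no independent support. Fitting only the 6 arrays of the comparison called 4 (0.0138%), all lower at high U, and leaving out the probes of the area of lost spots called 0 of 25607.

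The 4 probes called with 6 arrays alone had no gene name here. Each was well above background on all 3 low U arrays and on no high U array. The contig OM_UG27_56196118 (an identifier of the array design) had -4.62, -4.79 and -5.00 at high U, against 0.33, 0.21 and -0.03 at low U, and SS_UG_31979820 had -4.06, -4.09 and -3.26 at high U, against 0.46, 0.45 and 0.35 at low U. They were at least 16.5-fold and at least 14.8-fold lower at high U, with an adjusted p of 0.92 from limma in the 12-array fit for both. Both passed the filter through the low U arrays alone, and both were well above background on all 3 control arrays and on 1 of 3 medium U arrays. These 4 were chosen after their values were seen.

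The intervals limit how large a difference can have been missed. They come from the fit over 12 arrays without the slide as a block, so the pairing by slide does not enter them. The median standard error of the difference was 0.27 (log2), and the median 95% interval reached 0.61 to either side. For 18204 of the 29022 probes (62.7%) the interval lay within a 2-fold difference in either direction, and for 5771 (19.9%) within a 1.5-fold difference. A difference of more than 2-fold was estimated for 1299 probes, a count that includes dim probes and probes of the area of lost spots. Among the 22290 probes detected and with a value on all 6 arrays, 100 differed by more than 2-fold with groups that did not overlap. Of these, 45 were higher at high U, 22 of them with a spot in that area, and 55 were lower, 5 of them with such a spot.

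The within-slide differences of the tested probes were weakly correlated between slides. Across probes, which are not independent replicates, the Pearson correlation of high U minus low U was 0.14 between slides 1 and 2, 0.01 between slides 1 and 3 and 0.05 between slides 2 and 3 (Spearman 0.27, 0.04 and 0.04). Without the probes of the area of lost spots the first was 0.28 and the others were 0.02 and 0.04. Of the 28883 probes with a value on all 6 arrays, 3901 were higher and 4959 lower at high U on all 3 slides. The 2 groups did not overlap for 3255 probes (11.3%), 1246 of them higher (4.31%) and 2009 lower at high U (6.96%). The median difference was 0.01 on slide 1, -0.13 on slide 2 and 0.02 on slide 3. Of the 71 probes apart by more than 4-fold with groups that did not overlap, 52 were higher at high U, and 45 of these 52 had a spot in the area of lost spots of the low U array of slide 2.

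**Figure D2:**
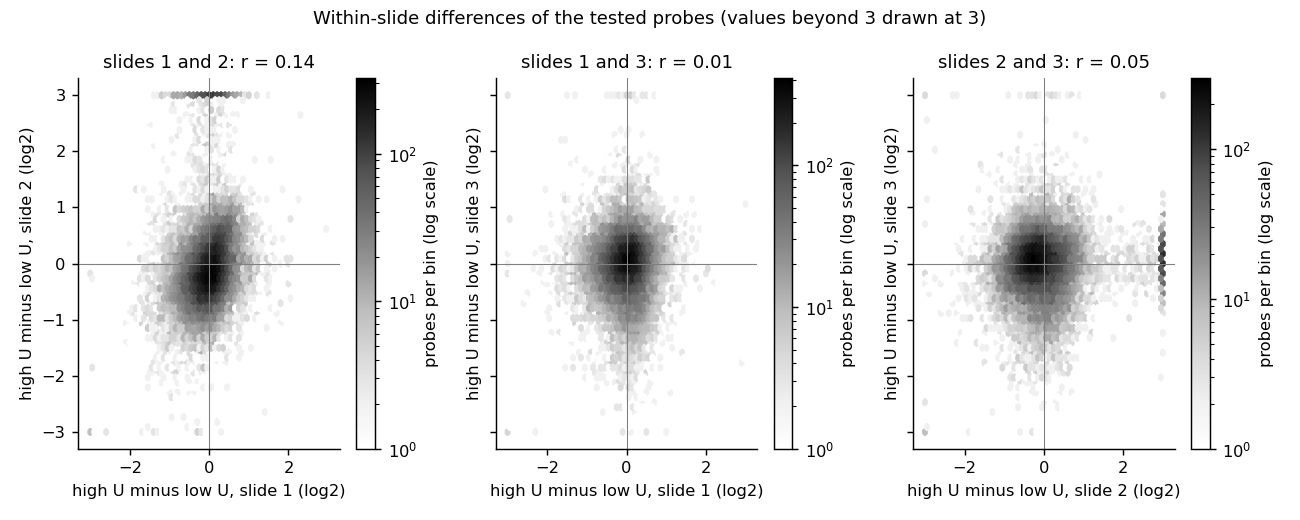
Each panel sets the high U minus low U difference (log2) of the tested probes on 1 slide (x axis) against that on another (y axis), with the number of probes per bin in grey on a log scale. The clouds have r = 0.14, 0.01 and 0.05, and most of the probes in the band at 3 on slide 2 have a spot in the area of lost spots of its low U array (811 of 856).

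Among the dimmest probes the excess of lower ones was absent where detection on all 6 arrays was required, but it remained at middle levels. The probes were divided into 4 groups of nearly equal size by their mean level over the 12 arrays. In the dimmest group, 386 were lower and 134 higher at high U at an unadjusted p below 0.05, but among those of this group detected on all 6 arrays, 42 were lower and 49 higher, with a median difference of 0.01. That requirement kept 1844 of the 7256 probes of this group. It leaves out by itself dim probes that fell under detection at high U, so no conclusion is drawn from the missing excess. Of the probes detected on all 6 arrays, 239 were lower and 79 higher in the second dimmest group, and 192 and 87 in the third. In the brightest group, 82 were lower and 69 higher, with a median of 0.01. Of the 1323 probes at this level, 164 were detected on all 3 low U arrays and on no high U array and passed the filter through low U alone.

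Gene names were available only for probes that the study itself listed as responding, through 880 probes whose listed fold changes matched the deposited value table. Of these, 798 were among the probes tested and 749 were detected on all 6 arrays. The list was chosen on these same arrays by a test over the 4 groups, so its members are not independent evidence of a difference between doses and a smaller spread among arrays was part of how they were chosen. Of the 798, limma called 0, 59 were higher and 46 lower at high U at an unadjusted p below 0.05, and the median difference was 0.00 (all tested probes, -0.04). The median 95% interval reached 0.43 to either side, and for 712 of them (89.2%) the 95% interval lay within a 2-fold difference. The groups did not overlap for 218 of the 798 (27.3%), 116 higher and 102 lower at high U, against 11.3% of all probes. Within-slide differences of the named probes correlated at 0.53 (slides 1 and 2), 0.51 (1 and 3) and 0.50 (2 and 3), against 0.14, 0.01 and 0.05 over all tested probes. Salmon carry many duplicated genes, so that 1 symbol can stand for more than 1 gene copy.

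Most probes that were lowered at medium U had more signal at high than at low U. The direction was taken from medium U against the control, whose arrays enter neither group. Of 1381 probes lowered at medium U (4.76% of those tested, adjusted p below 0.05 from limma, at least 1.5-fold), 1054 (76.3%) were higher at high than at low U and 327 (23.7%) were lower, while 43.6% of the probes in neither set were higher. Their median difference was 0.20, against -0.04 for the 25853 probes in neither set. On slides 1, 2 and 3 it was 0.19, 0.43 and 0.04, against 0.01, -0.14 and 0.02 for the probes in neither set. The sets were thus hardly apart on slide 3. Of 1788 probes raised at medium U (6.16%), 1141 (63.8%) were lower at high than at low U, which is not far from the 56.4% of the probes in neither set. Their median difference was -0.09, but it was 0.01 and 0.03 on slides 1 and 3 and -0.30 on slide 2, where the probes in neither set had -0.14. Without the low U array of slide 2 the medians were 0.18 for the lowered and -0.05 for the raised probes, with 1020 of the lowered probes higher and 1041 of the raised probes lower. No probe of either set was called between high and low U. Brightness relative to the spike-ins ran the same way, with medium U arrays at -3.02 to -2.68 and control arrays at -4.20 to -3.65, and its part in the pattern was not tested.

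**Figure D3:**
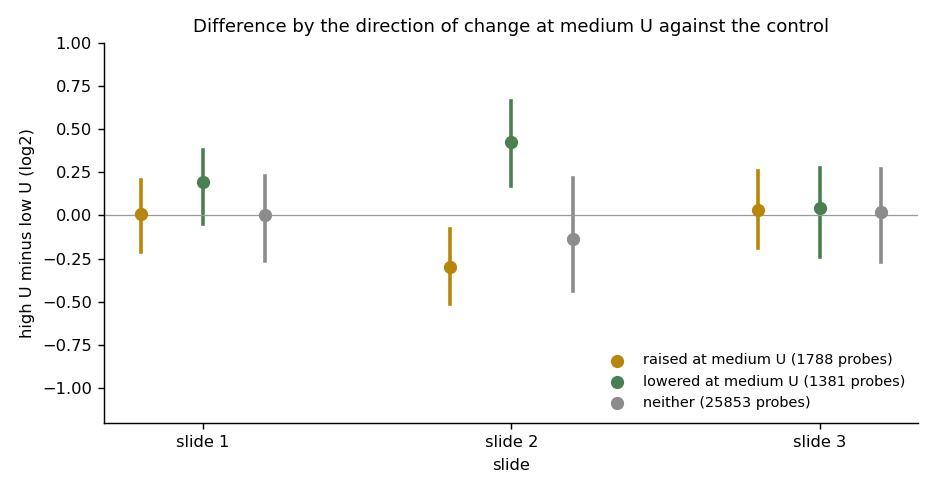
Points show the median and bars the 25th to 75th percentile over probes of the high U minus low U difference (log2) on each slide, for probes raised (1788) or lowered (1381) at medium U against the control and for all others (25853). The lowered probes have medians of 0.19 and 0.43 on slides 1 and 2, but 0.04 on slide 3, where all others have 0.02. The median of the raised probes lies below 0 on slide 2 alone (-0.30, all others -0.14).

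Among single named genes, 152 were detected on all 6 arrays with groups that did not overlap and the same sign on every slide, 85 higher and 67 lower at high U. These genes were drawn from the 798 named probes, a list chosen on these same arrays. In that list the groups did not overlap for 27.3%, with 116 probes higher and 102 lower at high U. Over all probes detected on the 6 arrays the share was 11.3%, with 1031 higher (4.63%) and 1482 lower at high U (6.65%). Of the 12 most in excess at high U all 12 belonged to the probes lowered at medium U. So did 81 of the 116 named probes that were higher without overlap, the kind from which the 12 were picked. Of the 12 lowest, 8 belonged to the probes raised at medium U, beside 80 of the 102 named probes that were lower without overlap. All 798 named probes held 230 lowered and 535 raised ones, so that the 8 are no more than either share. The differences lay between 0.63 and 0.83 for the 12 higher genes and between -1.12 and -0.55 (log2) for the 12 lower ones, and the adjusted p of limma was 0.552 for CD68 and 0.92 for the others.

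**Figure D4:**
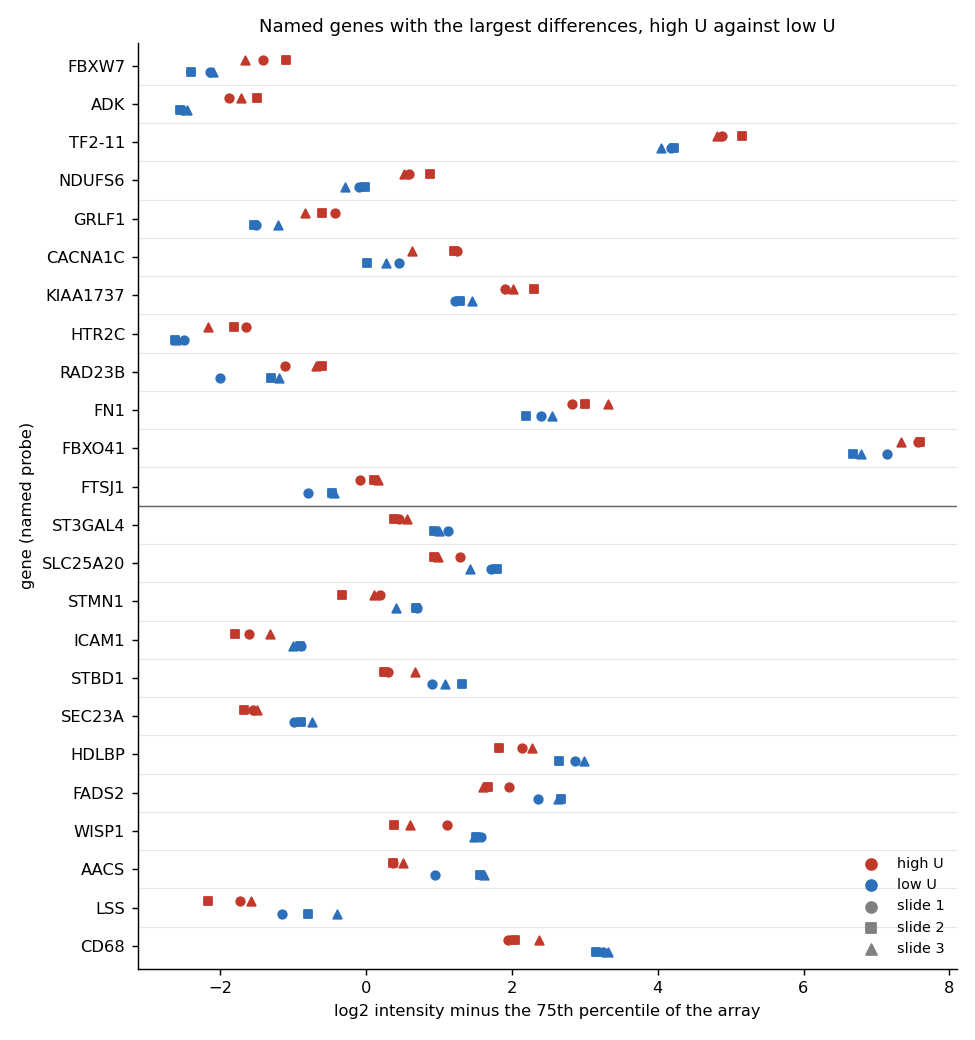
Log2 intensity minus the 75th percentile of the array for the 12 named genes most above (upper part, over the dark line) and the 12 most below their low U level at high U (lower part), on each high U array (red, upper row of a gene) and each low U array (blue, lower row), with the slide as the shape of the point. The 2 groups of points do not overlap for any of the 24 genes, which is how they were chosen.

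Among the lower genes, LSS, AACS, FADS2 and SLC25A20 act in sterol, ketone body and fatty acid metabolism. LSS, lanosterol synthase, which closes the ring system of sterols, had -1.72, -2.16 and -1.57 at high U on slides 1, 2 and 3, against -1.15, -0.79 and -0.39 at low U. The difference was -1.04 ± 0.27 (SE), and the probe had a spot in the area of lost spots. AACS, acetoacetyl-CoA synthetase, which turns a ketone body into a lipid precursor, had 0.38, 0.38 and 0.51 at high U, against 0.94, 1.57 and 1.63 at low U, a difference of -0.96 ± 0.20. FADS2, the delta-6 desaturase of polyunsaturated fatty acid synthesis, had 1.97, 1.67 and 1.61 at high U, against 2.37, 2.68 and 2.64 at low U, a difference of -0.81 ± 0.24. For all 3 the gap was smallest on slide 1. Their patterns over the other groups were unlike. The control and medium U means were -0.35 and -1.90 for LSS, 0.21 and 0.32 for AACS and 0.70 and 2.43 for FADS2. SLC25A20, the carrier that brings acylcarnitines into mitochondria, differed by -0.57 ± 0.22, and HDLBP, an RNA-binding protein that also binds high density lipoprotein, by -0.75 ± 0.20. The only other sterol synthesis gene named, HMGCS1 of the mevalonate pathway, went the other way, with 2.94, 3.36 and 2.83 at high U and 2.65, 2.62 and 2.73 at low U (0.38 ± 0.19). These genes were grouped after their values were seen, and each missed the test (limma, adjusted p = 0.92). The other fatty acid synthesis probe tested, described as an elongation protein of very long chain fatty acids, differed by -0.12 ± 0.20. CPT1A, also of fatty acid entry into mitochondria, differed by 0.15 ± 0.24, and by -0.01 at its second probe. For both the groups overlapped.

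Of the 12 lower genes the one with the most negative difference was CD68, a lysosomal membrane protein used as a macrophage marker in mammals. It had 1.95, 2.05 and 2.37 at high U on slides 1, 2 and 3, against 3.26, 3.15 and 3.31 at low U. The groups did not overlap, and the difference was -1.12 with a 95% interval of -1.53 to -0.71 (limma, adjusted p = 0.552). The mean of CD68 was 3.11 at medium U and 1.97 in the control arrays, and its high U values lay around the control mean. ICAM1, an adhesion receptor for leukocytes (the description of the probe names no gene), differed by -0.64 ± 0.20. A probe described as a Tcb1 transposase, of a mobile element of fish, had -2.25, -1.85 and -2.05 at high U, against -0.53, -0.91 and -0.86 at low U (-1.28 ± 0.21, limma, adjusted p = 0.552), with a spot in the area of lost spots.

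The other lower genes had varied functions. WISP1, a secreted matrix protein, differed by -0.82 ± 0.26, SEC23A of the coat of vesicles leaving the endoplasmic reticulum by -0.70 ± 0.22 and STBD1, which binds glycogen, by -0.70 ± 0.25. STMN1, which destabilises microtubules, differed by -0.61 ± 0.20 and ST3GAL4, a sialyltransferase, by -0.55 ± 0.18. The only clock gene named, PER1, had -1.06, -1.08 and -0.73 at high U, against -0.50, -0.48 and -0.29 at low U (-0.54 ± 0.17, limma, adjusted p = 0.92).

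The genes that were higher at high U also had varied functions. NDUFS6, an accessory subunit of respiratory complex I, had 0.59, 0.88 and 0.53 at high U on slides 1, 2 and 3, against -0.09, -0.01 and -0.29 at low U. Its difference was 0.80 ± 0.22, or 1.74-fold, with an adjusted p of 0.92 from limma, and NDUFS6 averaged -0.39 at medium U and 1.39 in control livers. TF2-11, annotated as the polyprotein of a retrotransposon, had 4.89, 5.15 and 4.81 at high U, against 4.19, 4.22 and 4.04 at low U (0.80 ± 0.17). FBXW7, the substrate receptor of a ubiquitin ligase, had -1.41, -1.09 and -1.66 at high U, against -2.14, -2.39 and -2.10 at low U (0.83 ± 0.23). For each of these 3 the lowest high U array was above the highest low U array.

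RAD23B, which recognises DNA lesions for nucleotide excision repair together with XPC, had -1.10, -0.61 and -0.69 at high U, against -1.99, -1.29 and -1.19 at low U. Its difference was 0.69 ± 0.27, and the high U array of slide 1 lay just above the low U array of slide 3. FN1, fibronectin, a plasma and matrix protein, differed by 0.66 ± 0.19 at this probe and by 0.37 at its second. FBXO41, with 7.56, 7.60 and 7.34 at high U and 7.14, 6.68 and 6.79 at low U, was the brightest of these genes (0.63 ± 0.19). The remaining genes of this kind were ADK (0.81 ± 0.20; the description reads adenylate kinase 1, which is another gene), GRLF1 (0.79 ± 0.21), the calcium channel subunit CACNA1C (0.78 ± 0.24), KIAA1737 (0.75 ± 0.19), the serotonin receptor HTR2C (0.70 ± 0.21) and FTSJ1 (0.63 ± 0.22).

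Respiratory chain genes of complexes I to V lay on both sides of 0. Over 16 probes of 13 genes the median difference was 0.03, with 0.15, -0.18 and 0.21 on slides 1, 2 and 3, and 9 probes were higher and 7 lower at high U. One of them, NDUFS6, had an unadjusted p below 0.05. ATP5B, the catalytic beta subunit of ATP synthase, had 7.54, 7.53 and 7.41 at high U, against 7.55, 7.49 and 7.47 at low U, and its 95% interval of -0.39 to 0.37 leaves out a 1.5-fold difference. SDHD, a membrane anchor of complex II, had 2.06, 1.87 and 2.14 at high U, against 1.83, 2.07 and 1.77 at low U (95% interval -0.32 to 0.59). COX6B1 of complex IV had 5.39, 4.77 and 5.12 at high U, against 5.03, 5.21 and 5.16 at low U (95% interval -0.48 to 0.39). The groups overlapped for all 3. All 4 probes of complex I were higher at high U, with NDUFA3 at 0.26 ± 0.16 (-0.31 with scaling to the spike-ins), and the complex IV assembly factors COX15 and SURF1 went opposite ways, with 0.39 ± 0.26 and -0.24 ± 0.17. The NDUFA3 and COX15 probes had a spot in the area of lost spots.

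Ribosomal protein genes of the cytosol, which encode the translation machinery, had a direction that depended on the scaling. All 10 probes of 9 genes were higher at high U relative to the 75th percentile, with a median of 0.22 (0.15, 0.24 and 0.31 on slides 1, 2 and 3), whereas the median was 0.10 with quantile normalization, 0.05 with normexp and -0.36 with scaling to the spike-ins. The groups did not overlap for 5 of the 10, against 11.3% of all probes (4.31% with high U above low U). Among the 798 named probes, from which these come, they did not overlap for 27.3%, 116 of them with high U above low U. Of the 10, 1 probe had an unadjusted p below 0.05 and none was called. RPL10 had 9.68, 9.65 and 9.69 at high U, against 9.52, 9.36 and 9.40 at low U (0.25 ± 0.15), and RPS20 had 6.53, 6.51 and 6.54 at high U, against 6.49, 6.15 and 6.18 at low U (0.25 ± 0.16). RPS19 differed by 0.39 ± 0.22. The 4 mitochondrial ribosome probes had a median of 0.00.

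Complement and acute phase genes were higher at high U for 3 of 4 probes, with a median of 0.37, but the median was -0.21 with scaling to the spike-ins. ITIH4, an acute phase plasma protein, had 4.66, 4.67 and 4.53 at high U, against 4.29, 4.10 and 4.22 at low U (0.42 ± 0.16), and C4A had 1.36, 1.79 and 1.55 at high U, against 1.34, 1.01 and 1.06 at low U (0.43 ± 0.22). CFB, a protease of the alternative pathway, differed by -0.15 ± 0.20, with a spot in the area of lost spots. None was called.

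Genes of stress, redox and cell death overlapped between the doses. AIFM1, HSP90AB1, P4HB, PRDX3 and JAK1 were among the genes chosen for qPCR in the study, as were SDHD and COX6B1. AIFM1, a mitochondrial flavoprotein released in cell death, had 1.11, 0.45 and 0.90 at high U on slides 1, 2 and 3, against 0.67, 0.72 and 0.35 at low U (95% interval -0.33 to 0.82). HSP90AB1, a cytosolic chaperone, had 3.34, 2.93 and 3.60 at high U, against 3.05, 3.21 and 3.09 at low U (-0.41 to 0.76). P4HB, protein disulfide isomerase of the endoplasmic reticulum, had 9.42, 9.21 and 9.97 at high U, against 8.92, 8.89 and 9.35 at low U (-0.19 to 1.15). For P4HB only the high U array of slide 2 lay within the low U range. PRDX3, the mitochondrial peroxiredoxin, had 2.80, 2.50 and 2.80 at high U, against 2.63, 3.05 and 2.76 at low U (-0.66 to 0.44). JAK1, a cytokine receptor kinase, had 2.20, 2.69 and 2.70 at high U, against 2.24, 2.49 and 2.45 at low U (-0.27 to 0.55). All 5 intervals include 0. MCL1, which protects cells from apoptosis, had 1.15, 1.02 and 1.49 at high U, against 1.48 to 1.51 at low U (-0.64 to 0.09), and the cytosolic peroxiredoxin PRDX2 had 0.94, 0.36 and 0.66 at high U, against 0.69, 1.02 and 1.20 at low U (-0.99 to 0.35). Over the lists, the 6 chaperone probes had a median of 0.05, the 6 apoptosis probes -0.02, the 4 antioxidant probes -0.11 and the 5 probes of DNA repair 0.06, and among them only the RAD23B probe had an unadjusted p below 0.05.

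Bile acid and organic anion transport genes had a median of -0.16 over 5 probes, none at an unadjusted p below 0.05. NR1H4, the bile acid receptor, differed by -0.44 ± 0.24 and the organic anion transporter SLCO1C1 by -0.44 ± 0.24, with 3.88, 3.74 and 4.12 at high U and 4.26, 4.32 and 4.48 at low U. SLCO1B3 differed by 0.26 ± 0.17. ABCC2, the canalicular export pump, had 2.20, 2.16 and 2.17 at high U, against 2.21, 2.30 and 2.52 at low U (-0.16 ± 0.17), so that its groups were apart by less than 0.01 on slide 1. SLC40A1, ferroportin, which exports iron, was the only metal handling gene named (0.36 ± 0.19, with a spot in the area of lost spots).

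Of the larger lists, xenobiotic metabolism had a median of -0.13 over 12 probes, coagulation -0.06 over 8, amino acid breakdown -0.05 over 10 and the cytoskeleton and membrane skeleton -0.01 over 11. Among them 1 probe had an unadjusted p below 0.05, that of AMT, an enzyme of glycine cleavage, with 0.79, 0.59 and 0.63 at high U and 1.07, 1.21 and 1.07 at low U (-0.44 ± 0.15). The TCA cycle had -0.20 over 3 probes, glycolysis 0.11 over 4 and the proteasome 0.00 over 3. Some lists with 1 or 2 probes lay further out, while others lay near 0, with -0.04 for complex III (1 probe) and -0.07 for complex V (2 probes). Fatty acid synthesis had -0.46 over 2 probes, of which FADS2 had -0.81 and the other -0.12. The interferon response had 0.23 over 2, the cell cycle -0.61 (STMN1) and the circadian clock -0.54 (PER1) over 1 each. Cholesterol synthesis had -0.33 over 2, of which LSS had a spot in the area of lost spots.

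Fuel and clotting genes overlapped between the doses. CPT1A, the gate of fatty acid entry into mitochondria, had 2.04, 1.89 and 1.96 at high U on slides 1, 2 and 3, against 2.00, 1.71 and 1.75 at low U (95% interval -0.39 to 0.68; -0.01 at its second probe). G6PC, which releases glucose from the liver, had 2.66, 2.71 and 2.49 at high U, against 2.39, 2.14 and 2.57 at low U (-0.20 to 0.71). The intervals of both include 0 and do not leave out a 1.5-fold higher level at high U. Of the clotting factors made in the liver, F9 had 3.45, 2.93 and 3.56 at high U, against 2.87, 2.05 and 3.44 at low U (0.53 ± 0.36), with a spot in the area of lost spots. Its second probe differed by -0.02, and leaving out 1 array gave 0.16 to 0.85 for the first. F10 had 3.97, 3.53 and 4.10 at high U, against 3.96, 4.14 and 4.25 at low U (-0.25 ± 0.23). The glucuronosyltransferase UGT1, which conjugates bilirubin and foreign compounds, had 4.71, 3.78 and 4.82 at high U, against 4.07, 3.73 and 4.21 at low U (0.43 ± 0.34), and its 5 probes ran between -0.37 and 0.43. The high U array of slide 2 was the lowest of its group for CPT1A, F9, F10 and UGT1.

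**Figure D5:**
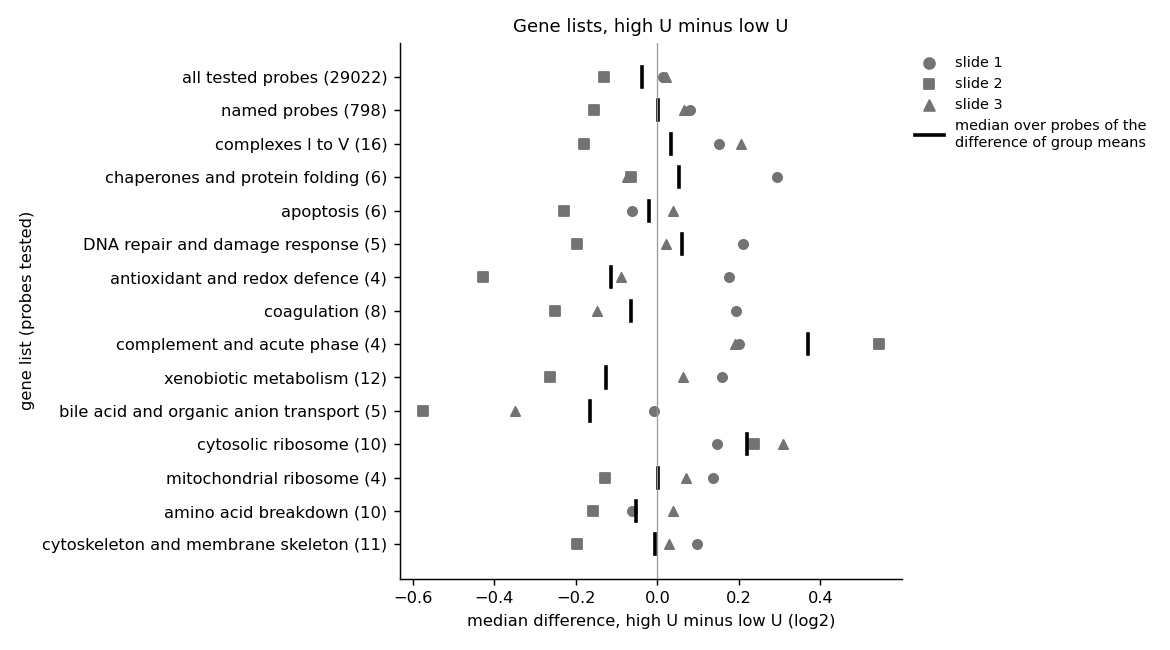
Median difference of high U minus low U (log2) of each gene list on slide 1 (circle), 2 (square) and 3 (triangle), with the median over probes of the difference of the group means as a black bar and the number of probes tested in parentheses. Slide 2 lies left of 0 for all tested probes (-0.13), and the cytosolic ribosome and the complement and acute phase lists lie right of 0 on all 3 slides on this scale, but their medians are -0.36 and -0.21 with scaling to the spike-ins.

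The labelled tissue could not be checked against its defining genes. None of the hepatocyte, erythrocyte, exocrine pancreas, leukocyte or skeletal muscle markers listed for the purpose carried a name, and COL1A1, the only marker of stromal cells named, was well above background on none of the 6 arrays. HBB1, a beta globin of red cells that was not on the marker list and was chosen after its values were seen, had 2.00, 2.12 and 1.97 at high U on slides 1, 2 and 3, against 1.49, 1.57 and 1.79 at low U (0.41 ± 0.14, limma, adjusted p = 0.92). A part of blood or of leukocytes in the differences above, CD68 included, was not tested.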

How the data were processed

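RNA of 12 livers was hybridised to 12 one-colour arrays (Cy3) of a custom salmonid design with 62976 spots, 1319 of them control spots. The authors scanned the arrays, and Agilent Feature Extraction (version 10.7, per the submitters' processing notes) gave the deposited background-subtracted intensity of each spot, with no scaling between arrays. A second deposited table holds log2 values scaled and centred by the authors with GeneSpring; its scaling method is not given in the sources used here. Each of its 12 columns matched an array of its own group best (r of at least 0.969), but 6 matched an array with another replicate number, and its numbers equal the slide for all 12. Within-group numbering therefore differs between the files, and group membership does not.

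Here, outlier spots were left out, log2 intensities of repeated spots averaged and the 75th percentile of each array subtracted. Probes well above background on at least 3 of the 6 arrays were tested with limma (version 3.58.1, R 4.3.3) in a fit over 4 groups without a block, two-sided, with Benjamini-Hochberg adjustment over all probes tested, at 0.05 and 1.5-fold. The steps were tested on simulated data. Deviations from the group means correlated between high U and low U arrays of the same slide (0.48, 0.11 and 0.37 on slides 1, 2 and 3), though weakly on slide 2. The slide was used to pair the arrays. Those with the same labelled number, all on different slides, had -0.07, -0.09 and -0.38. Deviations cancel within a group, so these negative values are no separate evidence on the numbering. An array measures no read depth, and the number of arrays limits the precision.

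Names came from matching the fold changes of the study's list of responding transcripts, used only as a key, to the value table (relative tolerance 1e-05). Of 1995 entries read 1972 matched, and 509 further entries were not used. Named are the 12 largest increases and decreases among genes detected on all 6 arrays with groups apart and 1 sign on all slides, the 10 lowest p-values (at most 2 unnamed), up to 4 members per gene list, 7 of the genes the study measured by qPCR, and the 3 largest bounds among probes detected at only high U or only low U of the 2 compared. Some genes that these rules select are not reported here. The comparison, its members, lists and tests were chosen with earlier results of these data known. Leaving out the area of lost spots was added after seeing the data. Tables were joined in pandas 2.3.3 and numpy 2.4.6 under Python 3.11.15, and matplotlib 3.10.9 drew the plots.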

Additional observations from a re-analysis of the deposited data

How the results depend on the processing

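The number of probes called between high and low U was 0 under every alternative run but 3. It was 4 with only the 6 arrays of the comparison and 48 under the methods' one-way test followed by Tukey, whose p was not adjusted over probes. It was 0 to 6 when each of the 12 arrays was left out in turn, with the 6 calls made without medium U replicate 2. With the slide as a block (the replicate block by slide), in the fit of 12 or of 6 arrays, and with the labelled replicate number as a block, 0 were called. The number at an unadjusted p below 0.05 was 1323 and became 1988 with the slide as a block, 4880 with no filter on dim probes, 2332 with the background corrected by normexp (on median spot signals, since the files hold no mean), 10456 with scaling to the spike-ins and 850 to 1963 with 1 array left out. The share of these that were lower at high U was 70.5%, but 99.9% with scaling to the spike-ins, 26.5% with no filter and 54.5% with normexp. It was 45.5%, 65.0% and 47.9% without low U replicates 1, 2 and 3. The cause was not tested, except that scaling to the spike-ins keeps the difference in brightness of -0.61. That difference was -0.59 with the mean of the spike-ins.

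Of the 60 named genes with a symbol, none was called under 8 other settings or with 1 array left out. Their direction was the same in 456 of 480 combinations of gene and setting. With scaling to the spike-ins it turned for AIFM1 (-0.34), HSP90AB1 (-0.40), SDHD (-0.44), P4HB (-0.10), JAK1 (-0.44), RPL10 (-0.33), RPS20 (-0.32), RPS19 (-0.19), C4A (-0.14), ITIH4 (-0.16), HMGCS1 (-0.20), SLCO1B3 (-0.31), SLC40A1 (-0.22), NDUFA3 (-0.31), COX15 (-0.18), CPT1A (-0.43), G6PC (-0.32), F9 (-0.0469) and UGT1 (-0.14). With normexp it turned for CA3 (0.0253), HSP90AB1 (-0.0943), SDHD (-0.0684), JAK1 (-0.0694) and CPT1A (-0.0498). With 1 array left out it ranged through 0 for ATP5B (-0.035 to 0.032), CFB (-0.26 to 0.00122), COX6B1 (-0.19 to 0.12) and PRDX3 (-0.20 to 0.00947).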
